A study of Rattus norvegicus with 6 samples.

Results

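The genes of the synaptic vesicle and of the release machinery were examined in RNA-seq of rat spinal cord, in 3 libraries from sham rats and 3 from rats with spared nerve injury neuropathic pain (SNI-NP). The members were the genes whose symbol belongs to the synaptotagmin (Syt), synapsin (Syn), Sv2, Vamp, syntaxin (Stx), syntaxin-binding (Stxbp), Rims, Unc13, complexin (Cplx) or Snap names and whose counts summed to at least 60 over the 6 libraries. This gave 62 of the 22050 genes listed, in 10 families. A further 4 symbols matched the names and lay under the limit, with summed counts of 1 for *Cplx4*, 5 for *Cplx3*, 10 for *Syt8* and 54 for *Syt10*. The members nearest above it were *Vamp5* with 133, *Syt14* with 148, *Syt16* with 188 and *Syt15* with 206. All 62 members passed the filter on low counts and were tested. The name rule takes genes by symbol and not by function, so that syntaxins and Vamp genes of the Golgi and endosomes, and *Snap91*, which encodes a clathrin assembly protein, stand among them.

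Transmitter release rests on a bundle of SNARE proteins. Vesicle-borne synaptobrevins, encoded by the Vamp genes, pair with syntaxin and SNAP-25 on the plasma membrane, and synaptotagmins trigger the fusion when calcium enters. Tomosyn, Munc13, RIM and complexin proteins guide or restrain this assembly, and synapsins and SV2 proteins belong to the vesicle itself. In the dorsal horn of the spinal cord these proteins act at the terminals of sensory fibres and at those of local excitatory and inhibitory neurons.

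The animals were male Sprague-Dawley rats aged 8 to 10 weeks. In SNI-NP rats branches of the sciatic nerve are cut while another is left intact, and sham rats had surgery without that injury. The labels name spinal cord as the tissue of every library and give neither the segment, the side nor the time after surgery, and nothing in them says whether a library came from 1 animal or from a pool. The p-values therefore measure the spread between these 6 samples.

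The libraries held between 16670760 and 18151156 counts, so that 3 counts, the upper limit that a count of 0 allows, correspond to 0.167 to 0.18 CPM (counts scaled to depth with TMM factors). Intervals and limits of this kind cover counting error only. Of 12 marker lists, that of neurons summed to 2197 to 4893 CPM and that of excitatory neurons to 54.4 to 213 CPM. Oligodendrocyte markers summed to 30220 to 41200 CPM and microglia markers to 232 to 306 CPM. The neuron and excitatory neuron lists were lowest in SNI-NP replicate 1, as was the dorsal root ganglion neuron list. How much of these sums came from the cord was not tested. Markers of tissue outside the cord were also high. The Schwann cell list reached 63480 to 97260 CPM and exceeded the oligodendrocyte list in all 6 libraries, and the dorsal root ganglion neuron list reached 243 to 2222 CPM. Skeletal muscle markers ranged from 9.83 to 394, blood markers from 329 to 1450 and immune cell markers from 757 to 1713 CPM. A library in each group stood apart. Sham replicate 2 had inhibitory neuron markers at 133 CPM against 290 and 416 in the other sham libraries, motor neuron markers at 25.1 against 58.2 and 70.3, and astrocyte markers at 719 against 1267 and 1713. SNI-NP replicate 1 had dorsal root ganglion markers at 243 CPM against 2222 and 1578 in the other SNI-NP libraries. The motor neuron marker *Mnx1* was at 0 counts in SNI-NP replicate 3 and at 9 counts or fewer elsewhere. Results that rest on these libraries are given with and without them below.

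The annotated promoter windows of 4 members are shown. Those of *Unc13c* and *Stxbp5l* were taken because these genes were lower in every SNI-NP library. Those of *Vamp1* and *Cplx1* were taken because they were the most abundant members and moved together between libraries. The 300 bases run 5′ to 3′ from 250 before to 50 after the start of the gene in RefSeq on the GRCr8 build, and capitals mark a cAMP response element (TGACGTCA) or a GC box (GGGCGG) on either strand.
*Unc13c*, chr8:83553773-83554072, minus strand: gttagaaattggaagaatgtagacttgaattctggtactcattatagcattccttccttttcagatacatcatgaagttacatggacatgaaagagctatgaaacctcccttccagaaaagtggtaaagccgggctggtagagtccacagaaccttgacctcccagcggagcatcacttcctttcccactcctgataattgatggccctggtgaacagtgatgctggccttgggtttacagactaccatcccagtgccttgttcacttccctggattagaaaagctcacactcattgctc
*Stxbp5l*, chr11:76839852-76840151, plus strand: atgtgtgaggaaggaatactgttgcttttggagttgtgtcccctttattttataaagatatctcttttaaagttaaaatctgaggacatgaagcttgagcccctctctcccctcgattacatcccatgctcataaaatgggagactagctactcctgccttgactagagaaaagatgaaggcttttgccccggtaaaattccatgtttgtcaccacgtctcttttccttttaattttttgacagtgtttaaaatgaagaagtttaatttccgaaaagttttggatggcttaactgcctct
*Vamp1*, chr4:159698644-159698943, plus strand: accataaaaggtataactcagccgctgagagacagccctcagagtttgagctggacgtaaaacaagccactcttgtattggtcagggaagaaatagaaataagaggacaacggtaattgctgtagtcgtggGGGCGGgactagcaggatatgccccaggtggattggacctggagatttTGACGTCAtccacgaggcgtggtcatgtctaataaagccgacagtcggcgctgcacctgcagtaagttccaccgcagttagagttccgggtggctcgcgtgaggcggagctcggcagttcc
*Cplx1*, chr14:1328823-1329122, plus strand: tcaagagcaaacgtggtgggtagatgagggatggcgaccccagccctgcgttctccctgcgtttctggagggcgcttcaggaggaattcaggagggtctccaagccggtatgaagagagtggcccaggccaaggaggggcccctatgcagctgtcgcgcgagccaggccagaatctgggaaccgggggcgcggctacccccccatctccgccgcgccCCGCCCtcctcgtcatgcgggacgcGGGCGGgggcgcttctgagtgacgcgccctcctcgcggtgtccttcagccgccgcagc
The *Vamp1* window held 1 cAMP response element and 1 GC box, which did not overlap, and the *Cplx1* window held 2 GC boxes. Neither motif was found in the windows of *Unc13c* and *Stxbp5l*. In the *Stxbp5l* window an ATG followed closely on the annotated start, in a frame open to the window's end. Whether that window holds the promoter in use was not tested. G and C made up 45.7% of the *Unc13c* window, 38.7% of that of *Stxbp5l*, 53.3% of that of *Vamp1* and 68.7% of that of *Cplx1*. RefSeq promoters were matched by symbol for 48 of the 62 members. A GC box was found in 36 of these 48 (75.0%), against 33.1% of 33469 promoters, and a cAMP response element in 2 of 48 (4.17%, *Syn1* and *Vamp1*) against 612 of 33469 (1.83%). Members were counted once per symbol, and the 33469 as single promoters of all genes, expressed or not, so the shares are not like for like. These counts describe letters in the window only.

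The members spanned levels from *Vamp1*, with a mean of 263 FPKM (fragments scaled to gene length and depth) over the 6 libraries, to *Syt15*, with 0.49 FPKM. Abundant members below *Vamp1* were *Cplx1* at 221, *Syt11* at 156, *Snap25* at 109 and *Vamp2* at 99.0 FPKM. The ranges of neighbours in this order overlapped between libraries. These are synaptobrevins, a complexin, a synaptotagmin and SNAP-25. The summed FPKM of all members was 2389, 1681 and 2373 in sham replicates 1, 2 and 3, and 1580, 2025 and 1728 in the SNI-NP libraries. Sham replicate 2 lay among the SNI-NP libraries in this sum.

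**Figure D1:**
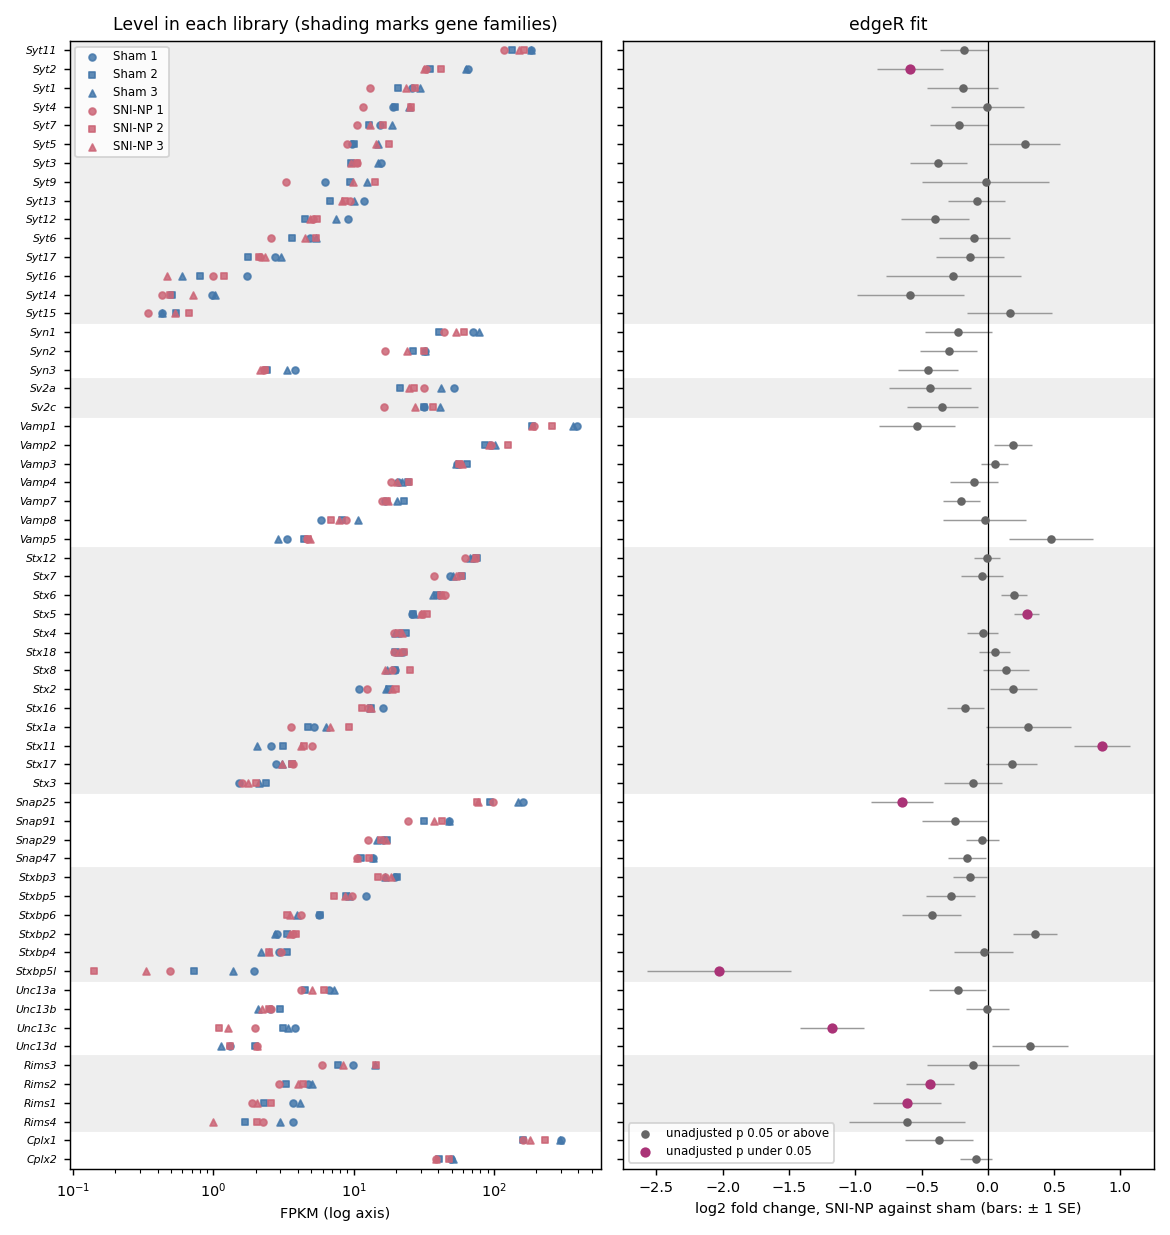
The left panel plots the FPKM of 60 members in each library on a log axis, by family, from a mean of 0.49 FPKM for Syt15 to 263 FPKM for Vamp1. The right panel plots the log2 fold change of SNI-NP against sham with bars of 1 SE, and the 8 coloured genes, 6 to the left of 0 and 2 to the right, had an unadjusted edgeR p under 0.05.

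The comparison of SNI-NP with sham asked which members differ after the nerve injury. At an unadjusted edgeR p under 0.05, 6 members were lower in SNI-NP (*Unc13c*, *Stxbp5l*, *Snap25*, *Rims2*, *Rims1* and *Syt2*) and 2 were higher (*Stx11* and *Stx5*). The 6 lower members made up 9.68% of the list, against 5.94% of the 14426 genes tested, and the 2 higher ones 3.23%, against 4.91%. After Benjamini-Hochberg adjustment over all genes tested 0 members and 0.0% of all genes passed 0.05 in edgeR, the smallest adjusted p of a member being 0.307. DESeq2 called 2 members at an adjusted p under 0.05, *Stxbp5l* and *Unc13c*, against 1.48% of all genes tested. Most members lay slightly below 0, with 47 of 62 (75.8%) having a negative log2 fold change against 49.1% of all genes, and a median of -0.14 against 0.01. Few of these small differences separated the groups. In 2 members every SNI-NP library lay below every sham library (*Unc13c* and *Stxbp5l*), or 3.23% against 8.15% of all genes. In 5 members (*Stx5*, *Stx6*, *Stx11*, *Stxbp2* and *Vamp5*) every SNI-NP library lay above, or 8.06% against 10.4% of all genes. Both shares were under those of all genes. In bulk tissue, fewer cells of a type and less RNA per cell cannot be told apart.

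*Unc13c* and *Stxbp5l* were the members with the lowest SNI-NP levels relative to sham. *Unc13c* (ENSRNOG00000056612) encodes Munc13-3, a priming factor that readies docked vesicles for fusion. Its level was 26.6, 21.1 and 23.9 CPM in the sham libraries and 14.6, 7.89 and 9.16 CPM in the SNI-NP libraries. All 3 SNI-NP libraries lay below all sham libraries. The means were 23.8 ± 2.76 and 10.5 ± 3.54 CPM (SD, n = 3 each), and the log2 fold change was -1.18 ± 0.24 (SE; edgeR adjusted p = 0.307). The unadjusted edgeR p was 0.00151 and stayed under 0.05 without any 1 library, with log2 fold changes from -1.48 to -1.01. Without SNI-NP replicate 1 the adjusted edgeR p was 0.0170, and *Unc13c* was then the only member under 0.05, against 1.52% of all genes.

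*Stxbp5l* (ENSRNOG00000002496) encodes tomosyn-2, which binds syntaxin and SNAP-25 in place of the vesicle SNARE and so restrains release. It was measured at 6.36, 2.31 and 4.48 CPM in sham and at 1.67, 0.444 and 1.1 CPM in SNI-NP. The groups did not overlap, although the counts were low, between 8 and 106 per library. The log2 fold change was -2.03 ± 0.54 (edgeR adjusted p = 0.351), and without any 1 library it ran from -2.50 to -1.66 with unadjusted p-values under 0.05. The inhibitory neuron list had a similar order within sham, its lowest value also being in sham replicate 2 and its highest in replicate 1. With the level of that list as a covariate, added after seeing the data, the log2 fold changes were -1.52 for *Stxbp5l* and -1.03 for *Unc13c*. Both had an unadjusted edgeR p under 0.05, with adjusted edgeR p-values of 0.482 and 0.474. The part of inhibitory neuron content in these genes was not tested.

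None of the other genes of these families was called with all 6 libraries. *Unc13a*, which encodes Munc13-1, the main priming factor of central synapses, was at 34.4, 22.7 and 37.5 CPM in sham and at 22.8, 31.5 and 26.4 CPM in SNI-NP (log2 fold change -0.23 ± 0.21). *Unc13b*, which encodes Munc13-2, was at 15.5, 17.7 and 12.8 CPM in sham and 16.7, 15.3 and 13.9 CPM in SNI-NP, with a log2 fold change of -0.00 ± 0.16. The groups overlapped in both. *Unc13d*, which encodes Munc13-4 of blood cell granules, had a log2 fold change of 0.32 ± 0.29. Within the syntaxin-binding family 6 of 7 members lay below 0, with a median of -0.25. *Stxbp3* was at 49.4, 49.5 and 42.2 CPM in sham and at 43.8, 37.5 and 47.1 CPM in SNI-NP, and *Stxbp5*, which encodes tomosyn-1, had a log2 fold change of -0.28 ± 0.19. *Stxbp6* was at -0.42 ± 0.22 and *Stxbp4* at -0.03 ± 0.22 on the same scale.

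Syntaxins were the family with the most members above 0. Of 14 syntaxins 8 had a positive log2 fold change, the family median was 0.09, and 2 were called as higher. *Stx11* (ENSRNOG00000014902), a syntaxin known for granule release in lymphocytes and natural killer cells, was at 5.04, 5.92 and 3.96 CPM in sham and at 10.3, 8.61 and 8.23 CPM in SNI-NP. Every SNI-NP library lay above every sham library. The means were 4.97 ± 0.98 and 9.05 ± 1.1 CPM (n = 3 each), with a log2 fold change of 0.86 ± 0.21 (edgeR unadjusted p = 0.00432, adjusted p = 0.336). Leaving out any 1 library gave 0.69 to 1.01, each with an unadjusted p under 0.05. *Stxbp2*, which encodes the partner of syntaxin 11 in those cells, was at 6.0, 6.76 and 5.82 CPM in sham and 8.22, 8.11 and 7.48 CPM in SNI-NP, and had a log2 fold change of 0.36 ± 0.17 (edgeR unadjusted p = 0.0665, adjusted p = 0.478). It too did not overlap between groups, and was picked for mention after its values were seen. The immune cell list summed to 757, 1713 and 1103 CPM in sham and to 841, 1120 and 1126 CPM in SNI-NP, with overlap, and most of that sum was *Lyz2*. Of its 5 markers, *Cd79a* lay higher in every SNI-NP library, at 7.53, 4.94 and 5.04 CPM against 1.5, 3.38 and 3.49 CPM in sham, and was picked for this after its values were seen. All other markers of the list overlapped between groups. *Ptprc* was at 8.4, 14.2 and 10.7 CPM in sham and at 11.1, 2.55 and 6.14 CPM in SNI-NP. *Cd3e* was at 1.44, 1.13 and 1.69 against 1.04, 0.722 and 1.16 CPM, and *Cd74* at 204, 312 and 208 against 195, 349 and 369 CPM. The blood list summed to 486, 329 and 704 CPM in sham and to 1450, 783 and 663 CPM in SNI-NP, with overlap. The part of these cells in the values of *Stx11* and *Stxbp2* was not tested.

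*Stx5* (ENSRNOG00000018847), a syntaxin of transport between the endoplasmic reticulum and the Golgi, was at 46.6, 45.3 and 47.4 CPM in sham and 57.1, 59.0 and 54.3 CPM in SNI-NP. The spread within each group was small, and the groups did not overlap. The log2 fold change was 0.29 ± 0.09 (edgeR unadjusted p = 0.0138, adjusted p = 0.431). Leaving out any 1 library gave 0.26 to 0.29 with unadjusted p-values under 0.05, and without both sham replicate 2 and SNI-NP replicate 1 it was 0.27, with an unadjusted edgeR p of 0.0557. *Stx6*, of the trans-Golgi network, also lay above sham in every SNI-NP library, with a log2 fold change of 0.20 ± 0.10. *Stx1a*, a syntaxin of the presynaptic plasma membrane, was at 11.2, 9.75 and 13.6 CPM in sham and at 8.0, 19.9 and 14.7 CPM in SNI-NP, with a log2 fold change of 0.31 ± 0.32. *Stx12*, an endosomal syntaxin and the family's highest member by FPKM, was at 159, 164 and 147 CPM in sham and at 146, 163 and 160 CPM in SNI-NP, with a log2 fold change of -0.00 ± 0.10. The other 8 syntaxins, most of which serve endosomes, the Golgi or the plasma membrane of many cell types, lay between -0.17 ± 0.14 for *Stx16* and 0.19 ± 0.18 for *Stx2*.

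All 4 Snap members lay below 0 and 1 was called. *Snap25* (ENSRNOG00000006037), the plasma membrane partner of syntaxin in release, was at 278, 156 and 254 CPM in sham and at 177, 130 and 133 CPM in SNI-NP. SNI-NP replicate 1 exceeded sham replicate 2, so that the groups overlapped. The means were 229 ± 64.8 and 146 ± 26.7 CPM (n = 3 each), and the log2 fold change was -0.65 ± 0.23 (edgeR unadjusted p = 0.0258, adjusted p = 0.436). Of the 6 fits without 1 library, 2 kept the unadjusted p under 0.05, those without sham replicate 2 (log2 fold change -0.86) and without SNI-NP replicate 1 (-0.81), the full range being -0.86 to -0.50. *Snap91*, the clathrin assembly protein of the endocytic step, was at 175, 110 and 174 CPM in sham and at 90.9, 156 and 139 CPM in SNI-NP (log2 fold change -0.25 ± 0.25). *Snap29* and *Snap47* had log2 fold changes of -0.04 ± 0.13 and -0.16 ± 0.14.

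**Figure D2:**
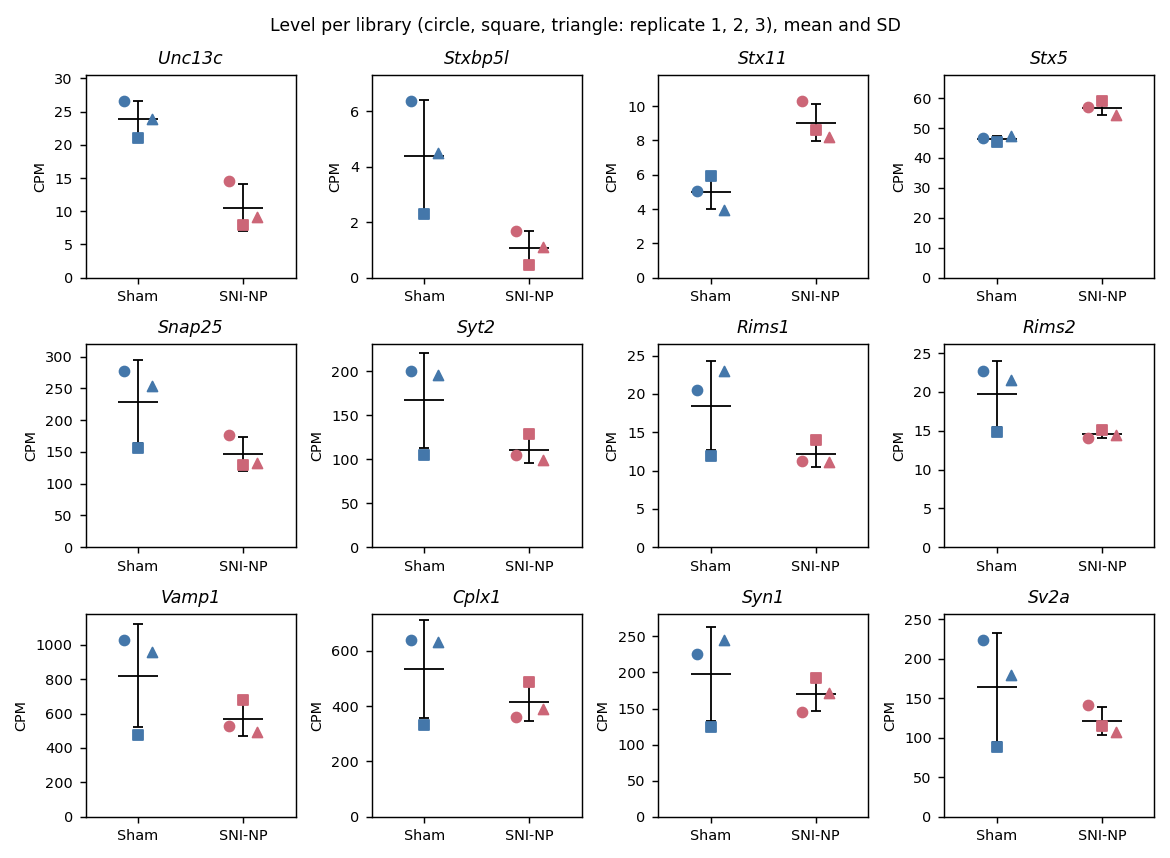
CPM in each library for 12 members, with the mean (line) and SD (bars) of 3 sham and 3 SNI-NP libraries; circles, squares and triangles are replicates 1, 2 and 3. The groups are apart for Unc13c, Stxbp5l, Stx11 and Stx5, whereas for the other 8 genes the square of sham replicate 2 lies in or below the SNI-NP range.

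Rims genes encode the active-zone scaffold that binds vesicles and calcium channels, and all 4 lay below 0 with a median of -0.52. *Rims1* (ENSRNOG00000011000) was at 20.5, 11.9 and 23.1 CPM in sham and at 11.2, 14 and 11.1 CPM in SNI-NP, with a log2 fold change of -0.61 ± 0.25 (edgeR unadjusted p = 0.0461, adjusted p = 0.454). *Rims2* (ENSRNOG00000004201) was at 22.8, 14.8 and 21.6 CPM in sham and at 14.1, 15.2 and 14.5 CPM in SNI-NP, with a log2 fold change of -0.43 ± 0.18 (edgeR unadjusted p = 0.0460, adjusted p = 0.454). In both genes sham replicate 2 lay within the SNI-NP range, and the other sham libraries lay above it. Of the 6 fits without 1 library, 2 kept *Rims1* under that threshold and 1 kept *Rims2*. *Rims3* was at 13.5, 10.2 and 19.3 CPM in sham and at 8.46, 19.7 and 11.7 CPM in SNI-NP. Its log2 fold change was -0.11 ± 0.35, and that of *Rims4* was -0.61 ± 0.44.

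Among the calcium sensors, 13 of 15 synaptotagmins lay below 0, with a median of -0.18 and 1 called as lower. *Syt2* (ENSRNOG00000004756), a fast sensor prominent in the spinal cord and hindbrain, was at 201, 104 and 195 CPM in sham and at 105, 129 and 99.1 CPM in SNI-NP. Sham replicate 2 again lay within the SNI-NP range. The means were 167 ± 54.2 and 111 ± 15.6 CPM (n = 3 each), with a log2 fold change of -0.59 ± 0.25 (edgeR unadjusted p = 0.0485, adjusted p = 0.458), and 2 of the 6 fits without 1 library kept that p under 0.05. *Syt11*, which lacks calcium-dependent sensing and was the highest of the family by FPKM, was at 786, 550 and 779 CPM in sham and at 520, 695 and 653 CPM in SNI-NP, with a log2 fold change of -0.18 ± 0.18. *Syt1*, the fast sensor of most forebrain synapses, had a log2 fold change of -0.19 ± 0.27 and *Syt4* one of -0.00 ± 0.28. *Syt9* varied most between the SNI-NP libraries, at 5.18, 21.2 and 15.0 CPM, after 9.43, 13.7 and 18.7 CPM in sham. The members above 0 were *Syt5* at 0.28 ± 0.27 and *Syt15* at 0.17 ± 0.32. The other 8 synaptotagmins lay between -0.58 ± 0.41 for *Syt14* and -0.08 ± 0.22 for *Syt13*, and none of them was called.

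The 3 synapsin and 2 Sv2 members, which encode proteins of the vesicle, were all below 0 and none was called. *Syn1*, which tethers vesicles to the cytoskeleton, was at 225, 124 and 245 CPM in sham and at 145, 192 and 172 CPM in SNI-NP (log2 fold change -0.22 ± 0.25). *Syn2* was at 85.3, 66.8 and 84.8 CPM in sham and at 45.8, 82.9 and 64.3 CPM in SNI-NP (-0.29 ± 0.22), and *Syn3* had a log2 fold change of -0.45 ± 0.23. Each of these overlapped between groups. *Sv2a*, a vesicle glycoprotein and the binding site of levetiracetam, was at 223, 88.0 and 179 CPM in sham and at 141, 115 and 108 CPM in SNI-NP (-0.43 ± 0.31). *Sv2c* was at 93.7, 89.8 and 122 CPM in sham and at 50.6, 108 and 81.8 CPM in SNI-NP (-0.34 ± 0.27). The low library differed between these paralogs, being sham replicate 2 for *Sv2a* and SNI-NP replicate 1 for *Sv2c*.

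Of the vesicle SNAREs, *Vamp1*, the synaptobrevin of spinal and motor terminals, was at 1027, 475 and 955 CPM in sham and at 527, 677 and 493 CPM in SNI-NP. Its sham replicate 2 was the lowest of the 6 libraries, and the log2 fold change of -0.53 ± 0.29 was within the spread (edgeR unadjusted p = 0.102, adjusted p = 0.513). *Vamp2*, the synaptobrevin of most brain synapses, was at 204, 180 and 221 CPM in sham and at 217, 271 and 201 CPM in SNI-NP, with a log2 fold change of 0.19 ± 0.14. The remaining 5 Vamp members, which serve endosomes, lysosomes and the surface of other cells, ran from -0.20 ± 0.14 for *Vamp7* to 0.48 ± 0.32 for *Vamp5*. *Cplx1*, a complexin that clamps and then promotes SNARE fusion, was at 638, 330 and 633 CPM in sham and at 362, 488 and 390 CPM in SNI-NP (-0.37 ± 0.26). *Cplx2* was at 103, 84.7 and 104 CPM in sham and at 87.8, 101 and 86.0 CPM in SNI-NP (-0.09 ± 0.12). The complexins overlapped between groups.

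Across these families 2 libraries set much of the spread. Sham replicate 2 was the lowest sham library in 36 of 62 members (58.1%), against 38.6% of all genes tested, and SNI-NP replicate 1 was the lowest of all 6 libraries in 20 of 62 (32.3%), against 17.1%. Relative to the sham mean, the median member lay at 0.09, -0.20 and 0.12 on the log2 scale in sham replicates 1, 2 and 3, and at -0.24, 0.01 and -0.12 in the SNI-NP libraries, with a pooled SD of 0.15. Members differed in which of these libraries was low, and some were low in both. In sham replicate 2 and SNI-NP replicate 1 the differences from the rest of the group were -0.67 and -0.69 in *Snap91*. They were -0.63 and -0.81 in *Rims3*, and -0.46 and -0.93 in *Syt1*. Sham replicate 2 lay below the mean of the other sham libraries by a log2 difference of -1.18 in *Sv2a* and -1.06 in both *Vamp1* and *Stxbp5l*. The difference was -0.94 in *Cplx1* and -0.92 in both *Syt2* and *Syn1*. The inhibitory neuron list differed by -1.38 in the same way, the motor neuron list by -1.35 and the astrocyte list by -1.04. SNI-NP replicate 1 lay below the other SNI-NP libraries by -1.69 in *Syt9*, -1.05 in *Stx1a*, -1.04 in *Syt4* and -0.93 in *Syt1*. The dorsal root ganglion list differed there by -2.94. In *Stxbp5l* and *Unc13c* the same library lay above the other SNI-NP libraries, by 0.82 and 0.74, and the inhibitory neuron list by 0.64. Member values on the log2 scale were taken here after adding a small constant to the CPM, and list differences without it. The constant makes differences smaller at low CPM, as for *Stxbp5l* at 1.67, 0.444 and 1.1 CPM in SNI-NP, so these sizes are not like for like. The part of cell content in these shifts was not tested.

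**Figure D3:**
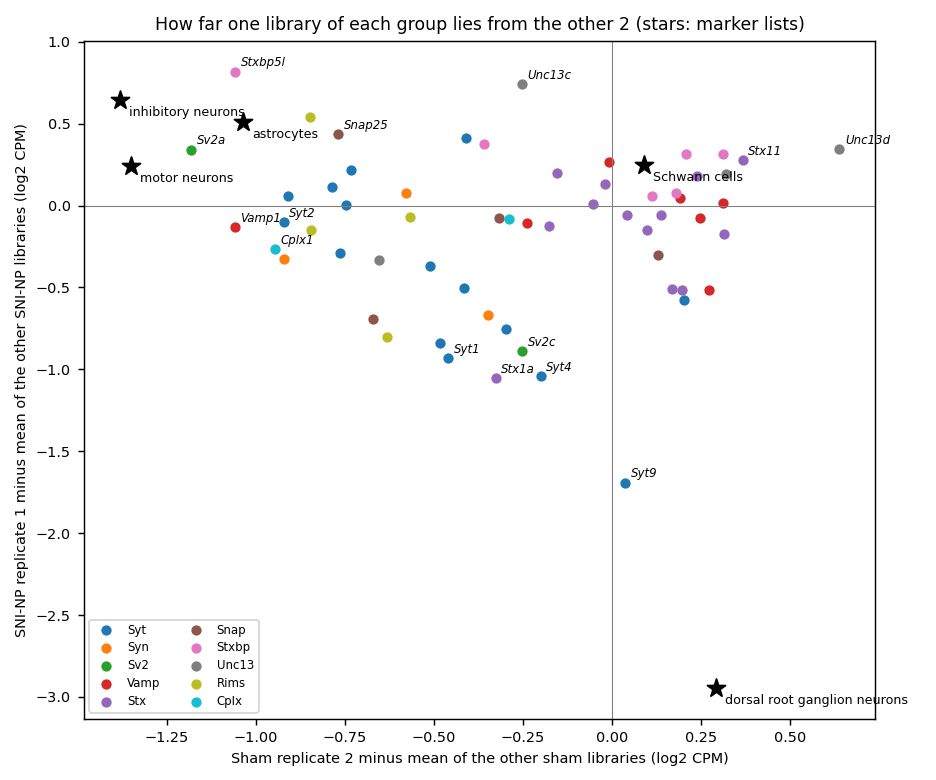
Shift of sham replicate 2 from the other sham libraries (horizontal axis) against that of SNI-NP replicate 1 from the other SNI-NP libraries (vertical axis). Both are in log2 CPM, for 60 members coloured by family and for 5 marker lists (stars). A small constant was added to the CPM of members before the log, and none to the lists. Sv2a and Vamp1 lie far left, beside the motor neuron list at -1.35, whereas Syt9, at -1.69, lies low on the vertical axis, on which the dorsal root ganglion neuron list is at -2.94.

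Leaving out these libraries changed the counts. Without sham replicate 2, 16 members were lower at an unadjusted edgeR p under 0.05 (25.8%, against 8.32% of all genes) and 2 were higher (3.23%, against 6.3%). Without that library 3 marker lists also lay lower in every SNI-NP library. Inhibitory neuron markers were at 416 and 290 CPM in sham and 248, 161 and 157 CPM in SNI-NP, motor neuron markers at 70.3 and 58.2 against 34.9, 31.1 and 28.1 CPM, and astrocyte markers at 1713 and 1267 against 1213, 875 and 829 CPM. Their part in the members' values was not tested. The 16 held the 6 lower members of the full comparison and added others, among them *Cplx1*, *Sv2a*, *Syn1*, *Syn3*, *Syt12*, *Syt3*, *Unc13a* and *Vamp1*. In this fit *Sv2a* had a log2 fold change of -0.74 ± 0.15, *Vamp1* one of -0.81 ± 0.16 and *Cplx1* one of -0.62 ± 0.15, with adjusted edgeR p-values of 0.213, 0.210 and 0.221. Without SNI-NP replicate 1, 3 members were lower (*Snap25*, *Stxbp5l* and *Unc13c*, or 4.84% against 9.52%) and 3 higher (*Stx11*, *Stx1a* and *Stx5*, or 4.84% against 3.56%). Without sham replicate 1 or without SNI-NP replicate 3, 2 members were lower (3.23%, against 4.10% and 4.18% of all genes), *Stxbp5l* and *Unc13c*. Without sham replicate 3, 3 were lower (4.84%, against 4.41%), *Stxbp5l*, *Unc13c* and *Stxbp6*. Without SNI-NP replicate 2, 6 were lower (9.68%, against 4.33%), of which 4 were among the 6 of the full comparison, *Sv2c* and *Syn2* standing in place of *Snap25* and *Rims2*. Without both, 18 members were lower (29.0%, against 13.3% of all genes) and 2 higher (3.23%, against 5.67%). Of these, 15 were also among the 16 lower without sham replicate 2. In that fit of 2 against 2 libraries, chosen after seeing the data, 6 members had an adjusted edgeR p under 0.05, among them *Unc13c* (adjusted p = 0.0179), *Snap25* (0.0179), *Sv2a* (0.0371), *Stxbp5l* (0.0404) and *Syt2* (0.0486), against 2.7% of all genes. With the inhibitory neuron list as a covariate, also added after seeing the data, the 3 lower members were *Snap25*, *Stxbp5l* and *Unc13c* (4.84%, against 4.62% of all genes). The members' median log2 fold change in that fit was -0.07, with *Sv2a* at 0.018, *Syt2* at -0.30 and *Snap25* at -0.37. The part of inhibitory neuron content in these values was not tested. Over the 18 fits compared, *Unc13c* and *Stx11* had an unadjusted p under 0.05 in 18, *Stxbp5l* in all 17 that tested it, *Stx5* in 17, *Snap25* in 14, *Syt2* and *Rims1* in 9 and *Rims2* in 8.

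**Figure D4:**
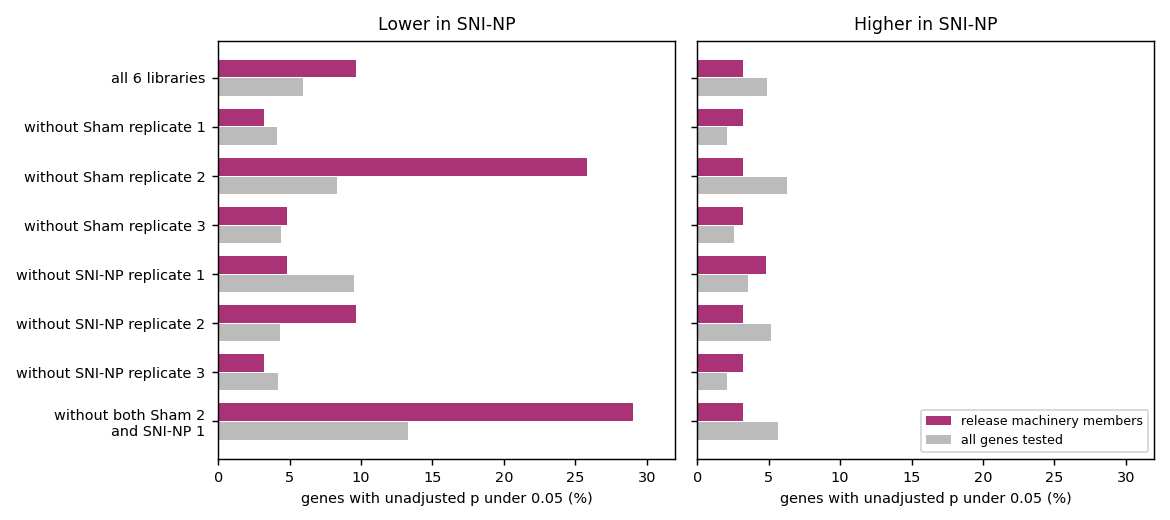
Share of the 62 members and of all genes tested with an unadjusted edgeR p under 0.05, in percent, lower (left) or higher (right) in SNI-NP, with all 6 libraries and with libraries left out. The members' lower share runs from 3.23% to 29.0% and is above that of all genes by the widest margins in the fits without sham replicate 2.

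Ratios between related genes within a library compare members that fill the same place in the machinery, and 8 pairs were compared by FPKM, of which 6 are reported. The ratio of *Vamp1* to *Vamp2* was 4.17, 2.18 and 3.57 in sham and 2.01, 2.07 and 2.03 in SNI-NP. All SNI-NP libraries lay below all sham libraries and close together, and the difference of the mean log2 ratio was -0.65. An exact two-sided permutation test gave p = 0.1, the smallest that 3 against 3 allows, and 0.4 after adjustment over the 8 pairs. The ratio of *Rims2* to *Rims1* was 1.27, 1.44 and 1.22 in sham and 1.55, 1.68 and 1.97 in SNI-NP, with a log2 difference of 0.40 (exact permutation p = 0.1, adjusted 0.4). On CPM, which does not use the gene length, the ratios were 1.11, 1.25 and 0.937 in sham and 1.26, 1.08 and 1.30 in SNI-NP, the groups overlapped, and the difference was 0.15 (exact permutation p = 0.4). The other 4 reported pairs overlapped between the groups, with log2 differences from -0.28 for *Syt2* to *Syt1* to 0.21 for *Unc13b* to *Unc13a* and exact permutation p-values from 0.4 to 0.6.

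**Figure D5:**
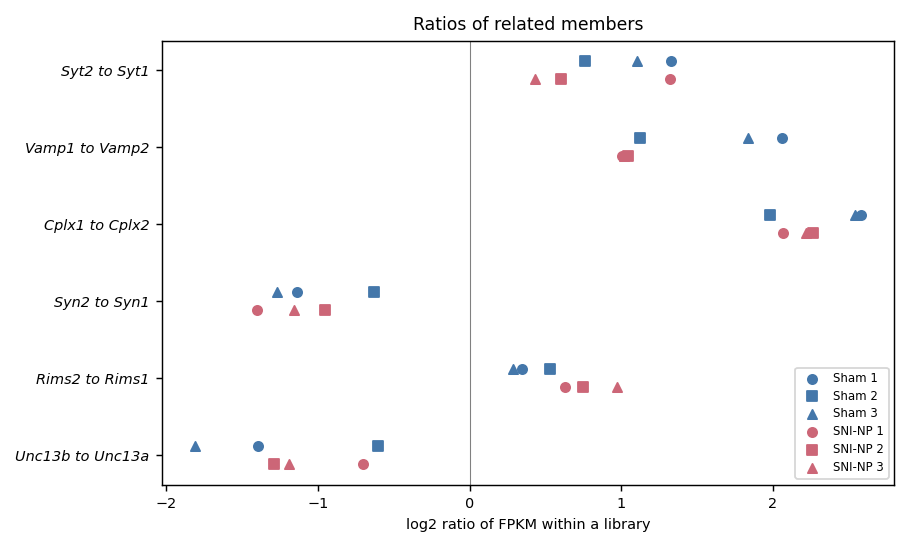
Log2 ratio of FPKM between 6 pairs of related members in each library (sham in blue, SNI-NP in red). The SNI-NP libraries lie below all sham libraries for Vamp1 to Vamp2, at ratios of 2.01 to 2.07 against 2.18 to 4.17, and above them for Rims2 to Rims1, a separation that is lost on CPM, and overlap in the other 4 pairs.

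The gene length that follows from count, total and FPKM was not constant for every member. For *Rims2* it was 4827, 4683 and 4320 bases in sham and 4638, 3513 and 3559 bases in SNI-NP. Of 57 members at 1 FPKM or more, 4 varied by over 1.1-fold between libraries (7.02%), namely *Rims2*, *Vamp4*, *Stx2* and *Unc13d*, against 4.53% of 11910 genes. For *Rims2* the log2 ratio of group mean FPKM was -0.21, in place of -0.43 on counts. The sources used here do not say how these lengths were set. Across the 62 members the Spearman correlation of the log2 fold change with length was -0.27, and across all 14426 genes it was -0.11. Both share the libraries of the comparison and are given as a description across genes. With offsets fitted to the trend with length, these correlations were -0.11 across the members and 0.07 across all genes, so a trend remained. In that fit 3 members were lower (4.84%, against 4.90% of all genes) and 3 higher (4.84%, against 9.03%). The lower ones were *Snap25*, *Stxbp5l* and *Unc13c* and the higher ones *Stx11*, *Stx5* and *Stx6*. The lower genes then made up 707 of all genes and the higher ones 1303, in place of 857 and 708.

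A list of 60 other genes of the vesicle cycle was also examined. Of 58 tested, 7 were lower at an unadjusted edgeR p under 0.05 (12.1%, against 5.94% of all genes) and 1 was higher (1.72%, against 4.91%), 46 lay below 0 (79.3%, against 49.1%) and the median was -0.19, against 0.01. *Rab3c*, a vesicle-bound GTPase, was at 13.3, 13.1 and 16.5 CPM in sham and at 8.51, 6.22 and 5.51 CPM in SNI-NP, with a log2 fold change of -1.08 (edgeR unadjusted p = 0.00119, adjusted p = 0.293). *Slc17a6*, which encodes the vesicular glutamate transporter VGLUT2 and also served as an excitatory neuron marker, was at 50.1, 34.8 and 50.0 CPM in sham and at 25.3, 26.8 and 27.0 CPM in SNI-NP, with a log2 fold change of -0.77 (edgeR unadjusted p = 0.00164, adjusted p = 0.307). In both genes every SNI-NP library lay below every sham library. *Dnm3*, a dynamin of membrane scission, was at 65.5, 58.5 and 72.9 CPM in sham and at 34.6, 50.3 and 42.9 CPM in SNI-NP (log2 fold change -0.62). *Napb*, of SNARE recycling, was at 25.4, 22.4 and 25.0 CPM in sham and at 14.3, 19.7 and 13.8 CPM in SNI-NP (-0.61). These groups did not overlap either. *Pclo*, a scaffold of the active zone, was at 34.0, 23.3 and 35.6 CPM in sham and at 22.3, 18.1 and 13.8 CPM in SNI-NP (-0.78). *Synj1*, of vesicle uncoating, was at 172, 127 and 166 CPM in sham and at 109, 107 and 121 CPM in SNI-NP (-0.46). Both lay below sham in every SNI-NP library. *Syngr2*, a synaptogyrin found mainly outside neurons, was higher at 35.3, 30.3 and 34.4 CPM in SNI-NP against 26.9, 26.2 and 28.2 CPM in sham, with a log2 fold change of 0.30 (edgeR unadjusted p = 0.0302, adjusted p = 0.438). In all, 8 of the 58 had every SNI-NP library below sham (13.8%, against 8.15% of all genes) and 1 had every library above (1.72%, against 10.4%). The smallest adjusted edgeR p was 0.293, and DESeq2 called 3 at an adjusted p under 0.05, *Rab3c* and *Slc17a6* among them, against 1.48% of all genes. Sham replicate 2 was the lowest sham library in 43 of the 58 (74.1%, against 38.6%), and without it 24 of 59 were lower (40.7%, against 8.32%).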

How the data were processed

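The authors deposited estimated counts and FPKM values for each gene in 3 sham and 3 SNI-NP libraries. Reads were kept where unique and aligned by the authors to the genome they call Rat6, and the submitters' processing notes list FastQC, STAR and HTSeq. The annotation release, the use of strand and the role of each tool are not given in the sources used here. The deposited counts are whole for all 62 members and not for some other genes. They were therefore treated here as estimated counts and rounded. Groups were taken from the sample labels.

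Counts were tested with edgeR 4.0.16 in R 4.3.3 (filterByExpr, TMM, quasi-likelihood test, condition as the single term, Benjamini-Hochberg adjustment over 14426 genes). The SE of a log2 fold change was taken from the F statistic. The common biological coefficient of variation was 0.223. Calls used a p of 0.05. FPKM, which the authors made from counts, length and depth, was used to compare levels between genes and for ratios of related genes. The authors' methods name DESeq2, run here as an alternative (version 1.42.0). The tests were first run on simulated counts. These were drawn for each gene separately, without shifts that many genes of a library share, so that check does not cover such shifts. Values in every library are given for each member with an unadjusted p under 0.05, for the 2 members of each family with the highest FPKM, and for related vesicle genes with an unadjusted p under 0.05. Other members were chosen after their values were seen. The members and lists were chosen with earlier results of these data known. The alternatives were RLE and upper-quartile factors, no filter, a minimum of 10 counts in every library, loess offsets on length (span 0.5), a block on the replicate number, both together, FPKM, DESeq2 and each library left out. Leaving out both libraries that stood apart, and marker levels as covariates, were added after seeing the data. The pairs *Sv2b* to *Sv2a* and *Snap23* to *Snap25* could not be formed, since neither *Sv2b* nor *Snap23* stood under that symbol among the 22050 genes listed. The Sv2 and Snap members therefore lack them. A few genes that these rules would name, and the ratios that need them, are not reported here, although the counts include them.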

Additional observations from a re-analysis of the deposited data

How the results depend on the processing

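The count of lower members at an unadjusted edgeR p under 0.05 was 6 and ran from 2 to 16 when each library was left out, with 16 without sham replicate 2. It was 18 without both sham replicate 2 and SNI-NP replicate 1, 3 with length offsets and 3 with the inhibitory neuron list as a covariate, the last and the first chosen after seeing the data. The count of higher members was 2, with 2 to 3 when a library was left out. Members with an adjusted p under 0.05 numbered 0 in edgeR and 0 to 1 when a library was left out. They numbered 2 in DESeq2 and 6 without both libraries. With the dorsal root ganglion list as a covariate, also added later, they numbered 1, against 199 of 14426 genes. Lower members at an unadjusted edgeR p under 0.05 then numbered 4 (6.45%, against 10.6% of all genes). The median log2 fold change ran from -0.25 to -0.09 when a library was left out. Related vesicle genes that were lower numbered 7, with 7 to 24 when a library was left out. They numbered 24 without both libraries (41.4%, against 13.3% of all genes) and 11 with the dorsal root ganglion covariate (19.0%, against 10.6%). The higher ones numbered 1, with 0 to 1 when a library was left out. With no filter they numbered 2 (3.28%, against 4.19% of all genes), and with length offsets 3 (5.17%, against 9.03%). They numbered 2 without both libraries (3.45%, against 5.67%) and 2 with the dorsal root ganglion covariate (3.45%, against 5.14%). The cause of these changes was not tested.

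Same-numbered sham and SNI-NP libraries had correlations of their deviations of 0.21, -0.14 and 0.05, so the numbers were not taken as pairs. With the replicate number as a block, 3 members were lower (4.84%, against 6.04% of all genes) and 0 related vesicle genes higher (0.0%, against 3.11%). With the block and length offsets together the values were 3 (4.84%, against 4.91%) and 0 (0.0%, against 5.89%).

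Some small fold changes turned sign. *Stx12* was 0.012 with length offsets, 0.013 with offsets and block, 0.076 without both libraries and 0.0053 with the dorsal root ganglion covariate. *Unc13b* was 0.0042 under the block, 0.19 with length offsets, 0.20 with both and 0.045 without both libraries. With the inhibitory covariate *Sv2a* was 0.018 and *Syn1* 0.025. When a library was left out *Rims3* ran from -0.51 to 0.14, *Stx12* from -0.077 to 0.044 and *Unc13b* from -0.15 to 0.11. The log2 differences of the ratios ran from -0.92 to -0.46 for *Vamp1* to *Vamp2*, from 0.30 to 0.48 for *Rims2* to *Rims1*, from -0.55 to -0.10 for *Syt2* to *Syt1*, from -0.38 to -0.08 for *Cplx1* to *Cplx2*, from -0.29 to 0.034 for *Syn2* to *Syn1* and from -0.062 to 0.54 for *Unc13b* to *Unc13a*.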
